A study of Mus musculus with 34 samples.

Results

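The genes described here are p53 and 30 of its regulators and targets, 31 genes of the 49686 gene symbols in the zygote and late 2-cell tables and of the 51734 in the blastocyst table. They were chosen by symbol as well-known parts of the p53 response, with earlier results of these data known, and all 31 were found in every table. RNA was measured in 34 single mouse embryos (Mus musculus) by SMART-seq2, a full-length cDNA method for very small samples. Each embryo had been injected at the zygote stage with mRNA encoding the checkpoint kinase CHK1, either wild type (WT) or carrying the amino acid change R442Q, so that the controls also carried injected CHK1. WT embryos comprised 5 zygotes, 4 taken late in the 2-cell stage and 7 blastocysts. The R442Q embryos comprised 6, 5 and 7 at the same stages. Zygotes and late 2-cell embryos received no inhibitor, whereas all 14 blastocysts, of both genotypes, grew in medium with 30 nM of a Chk1 inhibitor. A blastocyst value thus carries stage and inhibitor together, and the labels do not give the mouse strain or whether embryos of a group came from separate injections, so the tests measure the spread between these embryos only.

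p53, encoded by Trp53, is a transcription factor that is held at a low level by MDM2, a ubiquitin ligase, and MDM4, a related protein that binds and represses it. DNA damage frees p53, which then switches on genes that stop the cell cycle, relieve stress, repair DNA or start cell death, and which also raises Mdm2 and Ppm1d, the genes of its own inhibitors. CHK1 acts upstream in the same damage response, where it delays mitosis and can phosphorylate p53.

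Total counts were 7183632 to 11296522 per zygote and 5727956 to 8916343 per late 2-cell embryo. The blastocyst table gives FPKM (fragments scaled by transcript length and library total) only, so its depth is unknown. Summed over 8 late 2-cell markers, FPKM reached at most 143 in a zygote and at least 197 in a late 2-cell embryo, and the sum over 8 blastocyst markers was at least 1460 in each blastocyst. Sums of the oocyte and zygote markers did not separate the stages in R442Q embryos, at 3790 to 5590 FPKM in zygotes and 1730 to 7050 in late 2-cell embryos. Chek1 itself was at 4120 to 9080 FPKM in WT and 5290 to 6870 in R442Q zygotes, values that do not separate injected from endogenous mRNA. R442Q blastocyst replicate 7 (8189 genes detected) and WT blastocyst replicate 6 (9852) stood apart from the other blastocysts, which had 10714 to 12191 genes. Among late 2-cell embryos, R442Q replicate 3 had the most genes detected (16211) and R442Q replicate 4 correlated least with the rest (median Spearman 0.763).

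p53 binds DNA through pairs of a 10-base half-site, in which purines precede a core of C, A or T, A or T, G, and pyrimidines follow. RefSeq promoter windows (GRCm38.p6, 250 bases before to 50 after the start) were found for 23 of the 31 genes. The half-site consensus, which reads the same on both strands, was in a promoter of 11 of these 23 genes (47.8%) and of 9.55% of all 27025 genes with an entry. The 6 stretches below belong to p53, to its feedback inhibitors and to some of the targets whose levels are described below. Among the others, Sesn1 and Polk had a half-site 173 and 231 bases before the start and are not shown. Each stretch is given 5′ to 3′ on the strand of its gene, upstream of the start, with the half-site in capitals.
Trp53, chr11:69580260-69580317, plus strand: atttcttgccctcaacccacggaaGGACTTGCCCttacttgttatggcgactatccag
Mdm2, chr10:117710911-117710968, minus strand: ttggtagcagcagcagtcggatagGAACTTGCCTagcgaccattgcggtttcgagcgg
Ppm1d, chr11:85311098-85311155, plus strand: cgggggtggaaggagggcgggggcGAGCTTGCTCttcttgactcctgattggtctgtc
Cdkn1a, chr17:29090882-29090961, plus strand: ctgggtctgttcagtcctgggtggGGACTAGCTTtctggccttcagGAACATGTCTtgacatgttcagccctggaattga
Ccng1, chr11:40755438-40755495, minus strand: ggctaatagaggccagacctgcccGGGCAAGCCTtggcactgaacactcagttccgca
Bax, chr7:45467066-45467123, minus strand: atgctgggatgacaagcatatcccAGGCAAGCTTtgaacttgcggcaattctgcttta
The sites began 75, 186, 132, 185 and 201 bases before the start in Trp53, Mdm2, Ppm1d, Ccng1 and Bax, and 73 and 51 bases before it in Cdkn1a, the only one of the 23 genes with an entry that had 2 half-sites in 1 window. The windows of Plk2, Sesn2 and Apaf1, whose levels differed between genotypes, held no half-site; a match is a description of letters and not a binding site, and sites outside the window were not searched.

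On the FPKM scale, which allows levels of different genes to be compared, the p53 inhibitors Mdm4 and Mdm2 were among the highest genes of the pathway in WT zygotes, while Ppm1d, the phosphatase that also restrains p53, was at 6.27 FPKM, below Bax at 19.1 and Aen at 16.2. Mdm4 stood at 807 ± 252 FPKM (SD, n = 5), followed by Rrm2b, a ribonucleotide reductase subunit that supplies deoxynucleotides for repair, at 210 ± 82.3. Mdm2 was at 77.2 ± 4.95, Ddb2, which recognises ultraviolet lesions, at 68.5 ± 10.3, and Trp53 at 62.3 ± 4.22. Cdkn1a, the cyclin-dependent kinase inhibitor p21, was at 4.87 ± 3.27 FPKM, Plk2, a polo-like kinase, at 2.25 ± 0.54, and Sesn2, a stress sensor that restrains mTORC1, at 1.29 ± 0.40. The death-receptor genes and BH3-only genes were close to 0, with Fas at 0.018 ± 0.040, Bbc3 (Puma) at 0.15 ± 0.33 and Pmaip1 (Noxa) at 0.25 ± 0.16 FPKM. Phlda3, an inhibitor of AKT, was listed at 0 in all 11 zygotes.

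The order was different at the later stages. In WT late 2-cell embryos Mdm4 remained at the top, at 722 ± 211 FPKM (SD, n = 4), but Cdkn1a came next at 193 ± 97.0, ahead of Ei24, an endoplasmic reticulum protein, at 98.3 ± 39.3, Mdm2 at 97.3 ± 2.21 and Sesn2 at 82.0 ± 14.7. In WT blastocysts, all under the inhibitor, Rrm2b was at 352 ± 67.6 FPKM (SD, n = 7), Cdkn1a at 215 ± 161, Bax, the mitochondrial pore former, at 183 ± 41.0, Trp53 at 112 ± 58.9 and Perp, a membrane protein of desmosomes and cell death, at 96.3 ± 67.3, while Mdm4 was at 43.9 ± 15.8. Phlda3, which was listed at 0 in the zygotes, was at 9.50 ± 6.59 FPKM there. Fas stayed at 0.10 FPKM or less in every blastocyst, and Gadd45a, a growth arrest gene, was at 0.86 ± 0.90. The blastocyst table was made separately and differs in treatment, so no test was made across it.

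**Figure D1:**
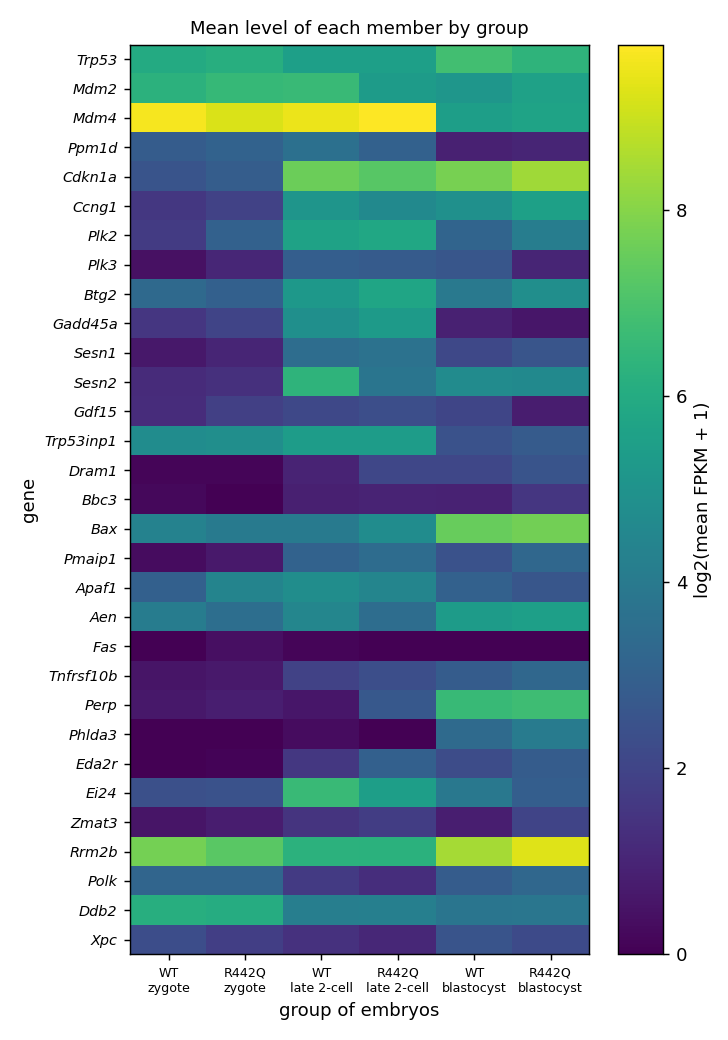
Mean level of each of the 31 genes in the 6 groups of embryos, as log2(mean FPKM + 1) on a colour scale, with genes in rows and groups in columns. Mdm4 is among the highest genes in zygotes and late 2-cell embryos and is at 43.9 FPKM in WT blastocysts, whereas Cdkn1a is at 4.87 FPKM in WT zygotes and at 193 and 215 FPKM in WT embryos of the later stages.

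Between zygote and late 2-cell all 6 cell-cycle genes rose in both genotypes, as did 5 of 9 death genes and 2 of 5 stress genes, while 3 of 4 repair genes fell in both. Of the death genes that rose, Pmaip1, Tnfrsf10b and Eda2r were too low to be tested within zygotes. They passed the filter through the late 2-cell embryos, which favours a rise. Aen passed the test in WT embryos, and Perp and Dram1 in R442Q embryos; for none of them did the difference between genotypes itself pass. In WT embryos 14 of the 28 genes tested rose and 3 fell (edgeR quasi-likelihood test, adjusted p under 0.05 over 16199 genes), where 36.2% of all genes tested rose and 25.0% fell. In R442Q embryos 15 rose and 5 fell, against 35.3% and 29.8% of all genes. The median log2 change of the 28 genes was 1.65 in WT and 1.59 in R442Q embryos, and that of all genes 0.34 and 0.22. The WT median of all genes was 0.17 without R442Q zygote replicate 1 and 0.07 with the GC and length trend of each library removed. In R442Q embryos the median of all genes was 0.085 without R442Q late 2-cell replicate 3. With limma on log2(FPKM + 1) the medians of the genes were 0.75 and 0.98, and that in R442Q embryos was 0.99 with DESeq2 and 0.85 without a filter on low counts, both over 31 genes. In both genotypes the share of the 28 genes that rose was above, and the share that fell below, that of all genes. The 28 genes include Pmaip1, Tnfrsf10b, Eda2r and Dram1, which passed the filter only through the late 2-cell embryos. The shares are therefore descriptions and no support for a rise of the pathway. Stage and table cannot be told apart in this comparison.

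Among the cell-cycle genes, Cdkn1a was at 1.44, 8.58, 5.28, 5.30 and 2.21 CPM (counts scaled to a common library total within each stage) in the WT zygotes and at 284, 135, 131 and 132 CPM in the WT late 2-cell embryos. The log2 changes between stages come from the joint fit, which scales both stages together. Every late 2-cell value was above every zygote value, and the log2 change was 5.10 ± 0.53 (SE; edgeR adjusted p 1.79e-08) in WT and 4.24 ± 0.46 (2.94e-08) in R442Q embryos. Plk2 rose by 4.52 ± 0.53 in WT (edgeR adjusted p 1.44e-07) and 2.75 ± 0.44 in R442Q embryos (1.05e-05). The other cell-cycle genes, Ccng1 (cyclin G1), Plk3 (a second polo-like kinase), Btg2 (an antiproliferative cofactor) and Gadd45a, rose by log2 changes of 1.88 to 4.22 in WT and 2.32 to 3.68 in R442Q embryos. WT late 2-cell replicate 1 was the highest WT embryo for Btg2 (198 CPM, against 15.4, 65.8 and 81.7) and for Ccng1 (301 CPM, against at most 49.1). Without it the WT change of Btg2 was 1.0 (edgeR adjusted p 0.0436) instead of 1.88, and that of Ccng1 2.50 (3.23e-05) instead of 3.96.

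Of the 5 stress genes tested, 2 rose in WT and 3 in R442Q embryos. Sesn2 had the largest fitted rise of the 28 tested genes other than Eda2r in WT embryos, from 2.52, 3.87, 4.08, 6.23 and 4.10 CPM in the zygotes to 309, 307, 221 and 260 CPM in the late 2-cell embryos, a log2 change of 5.94 ± 0.53 (edgeR adjusted p 2.06e-09). In R442Q embryos the same gene rose by 2.84 ± 0.43 (4.56e-06). Sesn1, its paralog, rose by 4.27 ± 0.70 and 3.15 ± 0.60. Dram1, a lysosomal autophagy gene, passed the test in R442Q embryos (4.14 ± 1.37, edgeR adjusted p 0.0111) and not in WT embryos (3.29 ± 1.47, 0.057), a difference between genotypes that did not itself pass the test (interaction 0.85 ± 2.00, 0.842). Trp53inp1, a p53-induced nuclear protein, and Gdf15, a secreted stress cytokine, did not pass in either genotype.

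Of the 9 death genes tested, 5 rose in both genotypes, among them Pmaip1, Tnfrsf10b and Eda2r, which passed the filter only through the late 2-cell embryos. Ei24 rose by 4.62 ± 0.43 in WT (edgeR adjusted p 3.17e-09) and 3.16 ± 0.37 in R442Q embryos (8.46e-08), Pmaip1 by 4.82 ± 0.77 and 3.88 ± 0.66, and Tnfrsf10b, the TRAIL receptor, by 3.47 ± 0.69 and 2.90 ± 0.60. Eda2r, a receptor of the tumour necrosis factor family, had no count in any WT zygote and 8.34, 1.16, 0 and 2.24 CPM in the WT late 2-cell embryos, at least 42-fold higher on average against a floor of 3 counts over the WT zygotes, which covers counting error only. The average of those late 2-cell embryos, 2.94 CPM, rests largely on replicate 1. That call was lost with limma on FPKM (limma adjusted p 0.087). With Eda2r at that bound the WT median of the 28 genes was still 1.65. Apaf1, the apoptosome scaffold, rose by 2.99 ± 0.37 in WT embryos (edgeR adjusted p 3.7e-07) and by 0.86 ± 0.32 in R442Q embryos (0.0225). The R442Q call was lost without a filter on low counts (0.0543), without R442Q zygote replicate 2 (0.0701) and without R442Q late 2-cell replicate 3 (0.062), on FPKM with limma the change was -0.092 (0.844), and with the GC and length trend of each library removed it was 1.41 (0.000707). Aen, an apoptosis-enhancing nuclease, passed in WT embryos only (1.42 ± 0.55, edgeR adjusted p 0.0285), a call that was lost in 13 of 25 alternatives, at 0.50 with limma on FPKM, at 0.0511 with the GC and length trend removed, at 0.0529 to 0.0923 without WT zygote replicates 2 or 3 or any 1 of the 6 R442Q zygotes, and at 0.0552 to 0.138 without WT late 2-cell replicates 1, 2 or 3. Its interaction did not pass (-1.04 ± 0.74, 0.411). Perp passed in R442Q embryos only (2.58 ± 1.0, 0.0274), with an interaction of 2.69 ± 1.52 (0.285), and the call was lost with limma on FPKM (0.0598), without R442Q zygote replicates 2, 5 or 6 (0.0571 to 0.0622), without R442Q late 2-cell replicate 3 (0.13) and with the GC and length trend removed (0.0611). Bax and Zmat3, a zinc finger protein that binds RNA, did not pass in either genotype.

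Of 4 repair genes 3 fell in both genotypes, and of p53 and its 3 inhibitors 2 fell in R442Q and none in WT embryos. Ddb2 fell by 1.99 ± 0.29 on the log2 scale in WT (edgeR adjusted p 3.62e-06) and by 2.00 ± 0.26 in R442Q embryos (5.55e-07), Rrm2b fell by 1.27 ± 0.24 and 1.24 ± 0.21, and Polk, a translesion DNA polymerase, by 2.03 ± 0.83 and 3.57 ± 0.81. The WT call for Polk was lost in 7 of 25 alternatives, at 0.0505 to 0.0699 without WT zygote replicates 1, 3, 4 or 5 or WT late 2-cell replicates 2, 3 or 4. Xpc, a sensor of helix distortion, did not pass in either genotype. Trp53 fell by 0.82 ± 0.23 in R442Q embryos (0.00381) and gave -0.53 ± 0.26 in WT embryos (0.0746), a difference of -0.28 ± 0.34 that did not pass (0.66). Mdm2 fell by 1.27 ± 0.17 in R442Q embryos (7.21e-07) and gave 0.28 ± 0.18 in WT embryos (0.184). Reads of Trp53, Mdm4, Bax, Tnfrsf10b and Rrm2b can be split with other annotated genes, since 3.88%, 7.3%, 8.51%, 5.8% and 4.27% of their 50-base stretches are also in other genes. For Bax that gene is Gm45808, which overlaps it on the same strand. On the opposite strand, another annotated gene lies across Mdm4, Cdkn1a, Plk3, Gadd45a, Apaf1, Ei24, Rrm2b, Polk and Ddb2, and on the same strand across Sesn1, Sesn2, Bax, Fas and Rrm2b. Whether the counting used strand is not given in the sources used here.

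**Figure D2:**
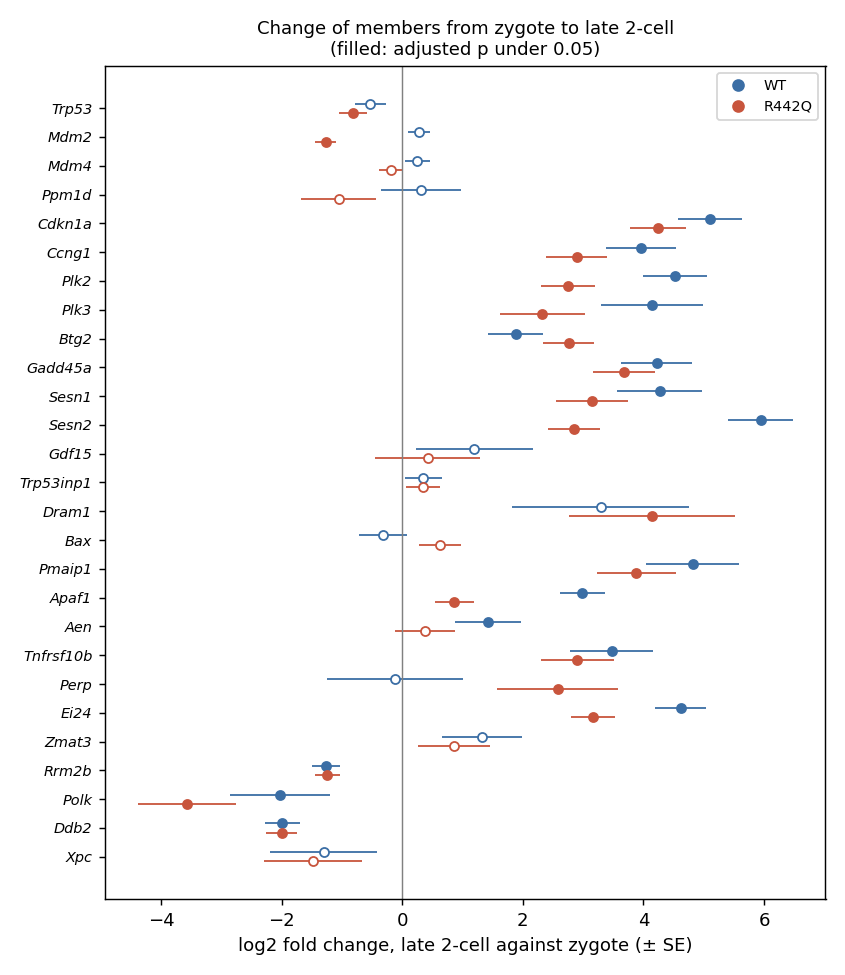
Log2 fold change from zygote to late 2-cell for 27 of the 28 tested genes in WT (blue) and R442Q (red) embryos, with bars for the SE and filled points for adjusted p under 0.05. Eda2r is left out because it had no count in WT zygotes. The cell-cycle genes all lie to the right of 0, Ddb2, Rrm2b and Polk lie to the left, and the points of Mdm2, Sesn2 and Apaf1 are separated between genotypes.

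Markers of other cells moved with the same stage comparison. Of the 12 markers of cumulus and granulosa cells, which surround the oocyte, 5 could be tested, of which 3 fell and 1 rose in WT embryos and 4 fell and 1 rose in R442Q embryos. Their summed level was 20.6 to 21.4 FPKM in WT zygotes, 12.9 to 19.0 in R442Q zygotes, 1.17 to 9.63 in WT and 3.25 to 22.9 in R442Q late 2-cell embryos. Ptx3, Amh, Inha, Lhcgr and Cd44 were at 0 in every WT zygote and Amh in every R442Q zygote. The part of such cells in the changes above was not tested.

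In zygotes, the question was whether the p53 response differed between embryos given R442Q and WT CHK1. Plk2, Apaf1 and Mdm2 were higher in R442Q zygotes, and none of the 24 genes tested was lower. Over 12420 genes, 6.30% were called higher and 6.92% lower; called in either direction were 12.5% of the 24 genes and 13.2% of all genes. At an unadjusted p under 0.05 were 8 of the 24 genes (33.3%) and 3366 of all 12420 (27.1%). The median log2 difference of the 24 genes was 0.37 and that of all genes 0.01, and with limma on log2(FPKM + 1) they were 0.13, over 20 genes, and -0.11. Dram1, Bbc3, Pmaip1, Fas, Tnfrsf10b, Phlda3 and Eda2r were too low to be tested at this stage; Pmaip1 and Tnfrsf10b reached at most 3.43 and 2.30 CPM in an embryo, and Dram1, Bbc3, Fas, Phlda3 and Eda2r averaged under 1 CPM in both genotypes.

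Plk2 (ENSMUSG00000021701.8; GRCm38 chromosome 13, 110395046 to 110400844) was at 4.93, 6.38, 7.07, 4.24 and 2.99 CPM in the WT zygotes and at 11.8 to 30.6 CPM (median 19.9) in the R442Q zygotes. All 6 R442Q embryos were above all 5 WT embryos, and no other of the 31 genes had groups that did not overlap in zygotes, where 8.71% of all genes tested did not overlap. The log2 difference was 1.93 ± 0.29 (SE; edgeR adjusted p 0.000631). Plk2 is a kinase of centrosomes and synapses that is switched on by p53 after damage.

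Apaf1 (ENSMUSG00000019979.12; GRCm38 chromosome 10, 90989311 to 91082770) encodes the scaffold of the apoptosome, on which caspase-9 is activated. It was at 6.25, 8.58, 5.04, 8.08 and 4.10 CPM in the WT zygotes and at 8.30 to 18.4 CPM (median 15.9) in the R442Q zygotes. R442Q replicate 2, at 8.30 CPM, lay inside the WT range and the other 5 above it. The log2 difference was 1.20 ± 0.26 (edgeR adjusted p 0.00679), and it missed the threshold in the joint fit of both stages (0.0646).

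Mdm2 (ENSMUSG00000020184.15; GRCm38 chromosome 10, 117688875 to 117710758) was at 156, 127, 138, 170 and 157 CPM in the WT zygotes and at 158 to 233 CPM (median 196.0) in the R442Q zygotes. R442Q replicate 2 (158 CPM) lay below WT replicate 4, and the remaining R442Q embryos were above all WT embryos. The log2 difference was 0.40 ± 0.12 (edgeR adjusted p 0.0349), and the call was lost in 10 of 17 alternatives, at up to 0.249 in the joint fit and, among fits without 1 embryo, at 0.0531 to 0.0955 without WT replicates 1, 2, 3 or 5 or R442Q replicates 1, 3 or 4.

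The remaining genes at an unadjusted p under 0.05 did not pass the adjusted test in zygotes. Plk3 gave a log2 difference of 1.67 ± 0.70 (edgeR adjusted p 0.129), Ccng1 0.63 ± 0.29 (0.175), Gdf15 1.03 ± 0.49 (0.182), Trp53 0.25 ± 0.11 (0.157) and Xpc -0.50 ± 0.23 (0.178). Cdkn1a averaged 4.56 ± 2.85 CPM over the WT zygotes (SD, n = 5), and over the R442Q zygotes 6.41 ± 4.36 CPM (n = 6), with a log2 difference of 0.49 ± 0.50 (0.586) that lay within the spread of the embryos. Mdm4 was at 1628 ± 238 and 1851 ± 134 CPM, a log2 difference of 0.19 ± 0.10 (0.243).

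Stage markers moved with the same comparison. Of 7 late 2-cell markers tested, 6 were higher in R442Q zygotes, among them Zscan4c (3.52 ± 0.74, edgeR adjusted p 0.00532) and Usp17la (2.75 ± 0.43, 0.000862); the list summed to 23.2 to 68.9 FPKM in WT and 44.1 to 143 FPKM in R442Q zygotes. The oocyte and zygote markers summed to 5770 to 7820 FPKM in WT and 3790 to 5590 FPKM in R442Q zygotes, with Zp3 and Ooep called lower of 7 tested. Of 4 blastocyst markers tested Krt18 was higher (2.99 ± 0.59, edgeR adjusted p 0.00334), and of 4 cumulus and granulosa markers none passed. No late 2-cell or oocyte marker was at 0 throughout a group. Plk2 and Apaf1 rise between these stages in WT embryos, and the part of a shift in stage in their higher zygote levels was not tested.

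At the late 2-cell stage the calls pointed the other way. Sesn2 and Mdm2 were lower in R442Q embryos and none of the 27 genes tested was higher, with 3 of the 27 (11.1%) at an unadjusted p under 0.05, against 2910 of all 13883 genes tested. Over 13883 genes, 1.22% were called higher and 2.95% lower, and the median log2 difference was 0.05 for the 27 genes and 0.07 for all genes. Without 1 embryo the median of the genes lay between -0.21 (without R442Q replicate 2) and 0.35 (without WT replicate 1), so that its sign is not settled. Sesn2, Mdm2 and Aen had groups that did not overlap, with R442Q below WT, against 12.0% of all genes tested.

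Sesn2 (ENSMUSG00000028893.8; GRCm38 chromosome 4, 132492032 to 132510501) was at 309, 307, 221 and 260 CPM in the WT embryos and at 65.4, 33.4, 65.2, 4.67 and 56.7 CPM in the R442Q embryos. The lowest WT value was above the highest R442Q value, with R442Q replicate 4 the lowest of all at 4.67 CPM. The log2 difference was -2.60 ± 0.53 (SE; edgeR adjusted p 0.0165), and without R442Q replicate 4 the adjusted p was 0.00764. Genotype effects at this stage correlated with GC content across genes (Pearson r -0.277 over 13784 genes, which are not independent replicates; -0.032 in zygotes), the exons of Sesn2 have 58.7% GC, and with the GC and length trend removed its log2 difference was -1.78 and no longer passed (0.0976). Sesn2 encodes sestrin 2, which binds leucine and holds back mTORC1 under stress.

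Mdm2 was at 180, 204, 178 and 214 CPM in the WT and at 103, 96.3, 79.6, 67.1 and 117 CPM in the R442Q late 2-cell embryos. The groups were well apart, with means of 194 ± 18.1 and 92.5 ± 19.4 CPM (SD), and Mdm2 per length was at 97.3 ± 2.21 FPKM in WT and 40.8 ± 6.78 FPKM in R442Q embryos. The log2 difference was -1.07 ± 0.27 (edgeR adjusted p 0.041). The log2 difference lay between -1.25 and -0.98 over the 15 alternatives. The call was lost in 9 of them, at up to 0.118 without WT replicate 2, at 0.0572 to 0.117 without WT replicates 1, 3 or 4 or R442Q replicates 1, 2 or 4, at 0.0534 without a filter on low counts, and at 0.099 with the GC and length trend removed, while the joint fit gave 0.000227.

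Aen was at 44.1, 60.7, 36.6 and 32.2 CPM in the WT and at 15.0, 31.6, 20.5, 0.519 and 31.3 CPM in the R442Q late 2-cell embryos. The groups did not overlap, but the gap between 32.2 and 31.6 CPM was small against the spread within each, and the log2 difference of -1.13 ± 0.67 did not pass (edgeR adjusted p 0.364). Ei24 was at 203 ± 83.3 and 94.9 ± 41.1 CPM, with a log2 difference of -1.09 ± 0.41 and an unadjusted p of 0.0184 (edgeR adjusted p 0.142). Apaf1, higher in R442Q zygotes, was at 36.9 to 63.5 CPM in WT and 11.3 to 47.9 CPM in R442Q late 2-cell embryos (-0.84 ± 0.40, 0.242). Cdkn1a was at 171 ± 75.7 and 139 ± 26.4 CPM (-0.30 ± 0.32, 0.636), and Plk2 at 127 ± 87.4 and 149 ± 86.5 CPM (0.23 ± 0.56, 0.858). Trp53 itself was at 71.4 ± 25.3 and 74.0 ± 25.0 CPM (0.05 ± 0.36, 0.957).

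Of the oocyte and zygote markers, 1 of 7 tested, Ooep, was higher in R442Q late 2-cell embryos (2.29 ± 0.35, edgeR adjusted p 0.00649), and the list summed to 1280 to 3180 FPKM in WT and 1730 to 7050 FPKM in R442Q embryos. None of 8 late 2-cell markers passed, with sums of 197 to 1630 FPKM in WT and 771 to 2640 in R442Q embryos. No marker of either list was at 0 throughout a group, and their part in the lower Sesn2 and Mdm2 levels was not tested.

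**Figure D3:**
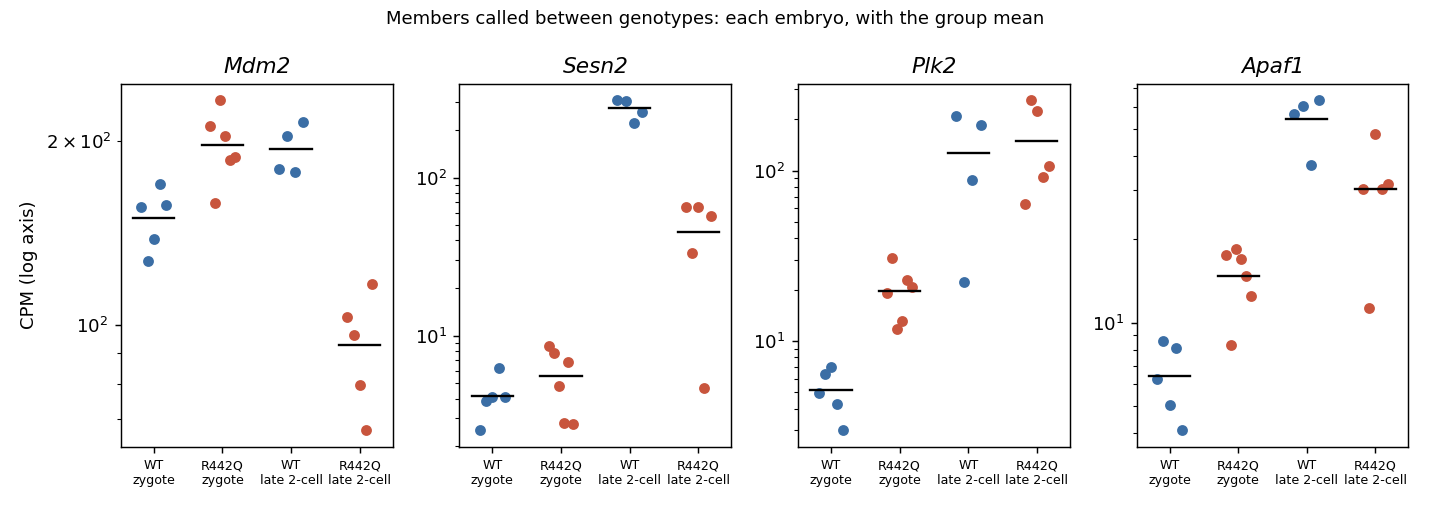
CPM, scaled within each stage, of Mdm2, Sesn2, Plk2 and Apaf1 in each zygote and late 2-cell embryo, on a log axis, with a point per embryo (blue WT, red R442Q) and a line at each group's mean. Sesn2 lies at 221 to 309 CPM in WT and 4.67 to 65.4 CPM in R442Q late 2-cell embryos, and Plk2 at 2.99 to 7.07 CPM in WT and 11.8 to 30.6 CPM in R442Q zygotes.

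The genotype effect differed between the stages in 3 of the 28 genes tested in the joint fit, each more negative at the late 2-cell stage. They were Mdm2 (-1.55 ± 0.25 log2 units, edgeR adjusted p 0.000467), Sesn2 (-3.10 ± 0.63, 0.00328) and Apaf1 (-2.12 ± 0.49, 0.00724). Over 16199 genes, 3.07% (497) had a higher and 7.05% (1142) a lower effect at the late 2-cell stage. That balance depended on the fit. It stayed without a filter on low counts (419 and 1018). With RLE size factors, another scaling of the libraries, the numbers were 707 and 917. They were 962 and 897 with limma on log2(FPKM + 1), and 456 and 475 with the GC and length trend removed. Called in either direction were 10.7% of the 28 genes, near the 10.1% of all genes, and the median was -0.67 for the 28 genes and -0.16 for all genes. These medians depended on single libraries and on the scale. Without WT late 2-cell replicate 1 they were -0.21 and -0.02, without R442Q late 2-cell replicate 1 -0.43 and -0.05, and without R442Q zygote replicate 4 -0.44 and -0.0063. With limma on log2(FPKM + 1) they were -0.15 and 0.08, with the GC and length trend removed -0.41 and 0.09, and with RLE size factors in edgeR -0.52 and -0.006. DESeq2 itself gave -0.64, over 31 genes, and -0.11. The 3 calls were kept in all 25 alternatives without a block. With the GC and length trend removed, which gave the largest adjusted p of these alternatives, the values were -1.29 (0.0116) for Mdm2, -2.12 (0.0427) for Sesn2 and -1.77 (0.0355) for Apaf1. Plk2 (-1.76 ± 0.65, 0.0871) and Ei24 (-1.46 ± 0.52, 0.0775) missed the threshold.

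In blastocysts grown with the inhibitor, none of the 28 genes tested differed between genotypes with limma on log2(FPKM + 1), and 4 (14.3%) were at an unadjusted p under 0.05, against 836 of all 11297 genes. A single gene of 11297, or 0.00885%, was called higher over the whole table and 0.416% had groups that did not overlap, none of them among the 31. The median log2 difference was 0.32 for the 28 genes and -0.10 for all genes, and that of the 28 genes was 0.15 to 0.17 without WT replicate 4, WT replicate 6 or R442Q replicate 3. Without R442Q replicate 7 the medians were 0.42 for the 28 genes and 0.0013 for all genes. In whole blastocysts, fewer cells of a type and less RNA per cell cannot be told apart.

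The 4 genes were Rrm2b (0.77 ± 0.22 on the log2(FPKM + 1) scale, limma adjusted p 0.241), Plk3 (-1.52 ± 0.49, 0.339), Gdf15 (-1.25 ± 0.45, 0.451) and Btg2 (1.01 ± 0.46, 0.648). Rrm2b was at 263 to 460 FPKM (median 359) in the WT and at 389 to 1031 FPKM (median 510) in the R442Q blastocysts. The highest value was that of R442Q replicate 7, the embryo with the fewest genes detected, and the groups overlapped. Mdm2 was at 19.8 to 54.1 FPKM (median 29.0) in WT and 29.7 to 64.3 FPKM (median 48.6) in R442Q blastocysts, a difference of 0.48 ± 0.26 (0.74), and Sesn2 at 12.2 to 43.0 FPKM (median 25.2) and 0.04 to 37.5 FPKM (median 28.1), a difference of -0.56 ± 0.65 (0.899). The lower Sesn2 value rested on R442Q replicate 7, at 0.04 FPKM, without which the difference was 0.11 ± 0.32. Differences between these stages were not tested.

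**Figure D4:**
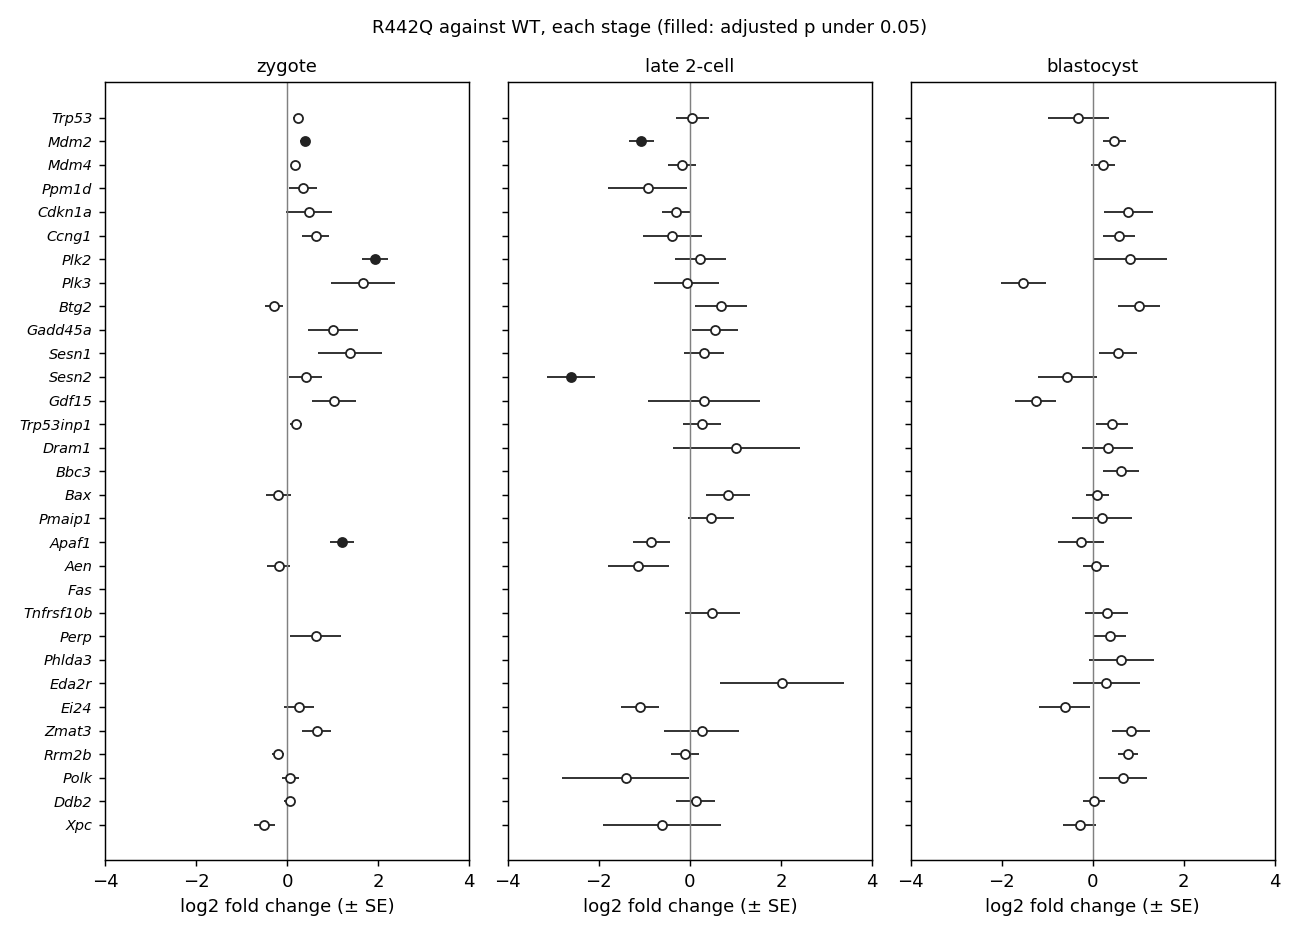
Log2 fold change of R442Q against WT for each tested gene in zygotes, late 2-cell embryos and blastocysts, with bars for the SE and filled points for adjusted p under 0.05 (edgeR on counts in the first 2 panels, limma on log2(FPKM + 1) in the last). Plk2, Apaf1 and Mdm2 are filled to the right of 0 in zygotes, Sesn2 and Mdm2 to the left in late 2-cell embryos, and none in blastocysts.

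Cdkn1a varied widely among blastocysts, from 28.9 to 528 FPKM (median 175) in WT and from 78.7 to 698 FPKM (median 339) in R442Q embryos, and some other targets varied with it. Over the 14 embryos its Pearson correlation was 0.5 or more with 10 of the 27 other tested genes of the pathway and with 4.86% of all 11296 genes, and the median r was 0.43 for the 27 genes and 0.06 for all genes. Some genes ran the other way, among them Gdf15 (r -0.44), Ei24 (-0.34) and Plk3 (-0.13). The closest was Btg2, with r 0.85 (permutation p 1e-05, the smallest that 100000 permutations can give; 0.113 adjusted over 11296 genes) and Spearman rho 0.88 (permutation p 7e-05, adjusted 0.194), followed by Ccng1 with r 0.78 (permutation p 0.00082, adjusted 0.457) and rho 0.83 (permutation p 0.00039, adjusted 0.245). With both embryos farthest from the median left out (WT replicate 5 and R442Q replicate 1), r was 0.81 for Btg2 and 0.69 for Ccng1. After adjustment no gene of the whole table passed (0% called), so these are descriptions.

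Within genotypes, r with Cdkn1a was 0.78 in WT and 0.92 in R442Q blastocysts for Btg2, and 0.82 and 0.75 for Ccng1, while the median over all genes was -0.13 in WT and 0.39 in R442Q embryos. Without WT replicate 6 and R442Q replicate 7, the r was 0.86 for Btg2 and 0.78 for Ccng1. For Trp53 mRNA r with Cdkn1a was -0.0018 over the 14 embryos (permutation p 0.995, adjusted 0.999), with -0.41 within WT and 0.87 within R442Q embryos. For Ddb2 it was -0.057 (permutation p 0.848, adjusted 0.993). The points share their library and its depth, which the FPKM table does not give.

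The deposited counts and FPKM also carry a length. A count divided by FPKM and by the library's total count, in matching units, gives it in kilobases for a gene in an embryo. It is not the annotated length and can shift with the library. Btg2, with 1 annotated transcript of 2743 bases, averaged 2.60 kb in WT zygotes. In late 2-cell embryos it averaged 2.68 kb in WT and 2.62 kb in R442Q. For Mdm4 (ENSMUSG00000054387.13; GRCm38 chromosome 1, 132959484 to 133030561), with 14 annotated transcripts of up to 7105 bases, this implied length differed between the groups. It was 2.40, 1.70, 1.96, 2.46 and 2.42 kb in the WT zygotes and 2.75 to 3.67 kb (median 2.91) in the R442Q zygotes. In late 2-cell embryos it was 3.09, 3.05, 2.84 and 2.87 kb in WT and 2.26, 2.13, 1.59, 2.29 and 2.00 kb in R442Q embryos. The groups did not overlap at either stage, with R442Q longer in zygotes and shorter in late 2-cell embryos.

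On the log2 scale the difference was 0.48 ± 0.11 in zygotes, which did not pass over 6696 genes (limma adjusted p 0.127), and -0.54 ± 0.11 in late 2-cell embryos (0.0451 over 5523 genes). The difference between the stages was -1.02 ± 0.16 (limma adjusted p 0.00116). Btg2 also passed this test, with a smaller difference of -0.041 ± 0.013 (limma adjusted p 0.028). In the whole tables, 0.0149% of genes were called in zygotes, 2.35% in late 2-cell embryos and 29.2% for the difference between stages, and 2.52% and 30.2% had groups that did not overlap. The late 2-cell libraries also differed as a whole, by a median log2 difference of -0.05 over all genes and -0.04 over genes with 1 annotated transcript, and 98.6% of the latter had groups that did not overlap. Lack of overlap alone therefore says little about Mdm4 at that stage, where its difference of -0.54 was larger than that shift. The late 2-cell call was lost in 9 of 11 alternatives, at up to 0.117 without WT replicate 2, at 0.0544 to 0.116 without WT replicates 1, 3 or 4 or R442Q replicates 1, 2, 4 or 5, and at 0.0748 with libraries centred on genes with 1 transcript, with log2 differences of -0.58 to -0.45. The CPM and FPKM of Mdm4 pointed in opposite directions in zygotes, at 1628 and 1851 CPM but 807 and 589 FPKM in WT and R442Q embryos, and likewise in late 2-cell embryos, at 2070 and 1835 CPM but 722 and 876 FPKM. Whether its transcripts differ was not measured here.

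**Figure D5:**
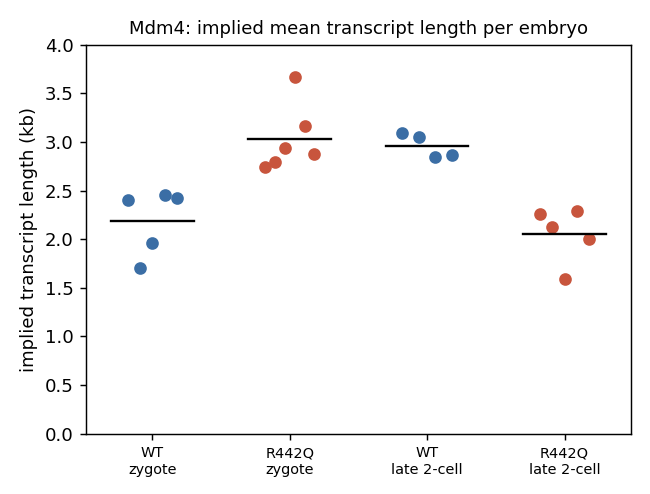
Implied length of Mdm4 in kb in each embryo, with a point per embryo (blue WT, red R442Q) and a line at each group's mean. R442Q zygotes lie at 2.75 to 3.67 kb, above the WT zygotes at 1.70 to 2.46 kb, and R442Q late 2-cell embryos at 1.59 to 2.29 kb, below the WT embryos at 2.84 to 3.09 kb.

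Other genes of the pathway were read from lists of 30 further p53 targets and 30 regulators and partners. Of 20 further targets tested in zygotes, 3 were higher in R442Q embryos and 5 lower, where 6.30% and 6.92% of all genes were. Those with the smallest p were Triap1, an inhibitor of apoptosis (-0.84 ± 0.16, edgeR adjusted p 0.00329), Ankra2 (0.68 ± 0.13, 0.00332), the ribosomal protein gene Rps27l (0.52 ± 0.11, 0.00453) and Ckap2, a spindle protein (-0.65 ± 0.15, 0.00848). None of 26 tested passed in late 2-cell embryos and none of 25 in blastocysts. From zygote to late 2-cell 15 of 27 rose in each genotype, with 4 falling in WT and 5 in R442Q embryos, where 36.2% and 35.3% of all genes rose and 25.0% and 29.8% fell. The genotype effect differed between stages for Ckap2 (1.33 ± 0.31, 0.00812) and Triap1 (1.70 ± 0.43, 0.0136), or 2 of 27 higher and none lower, against 3.07% and 7.05% of all genes. The medians of the list in the genotype comparisons were 0.28, 0.00051 and -0.06 in zygotes, late 2-cell embryos and blastocysts.

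Of 25 regulators tested in zygotes, 1 was higher in R442Q embryos, Trp63, the oocyte's p53 relative (0.51 ± 0.14, edgeR adjusted p 0.0217), and 3 were lower: Ing1, a chromatin reader that binds p53 (-1.07 ± 0.14, 0.000233), Ppp1r13l, the p53 inhibitor iASPP (-1.52 ± 0.43, 0.0286), and Atr, the kinase upstream of CHK1 (-0.95 ± 0.27, 0.0294). These 4 of 25 stand beside 13.2% of all genes called in either direction. The median of the 25 was -0.11. None of 27 tested passed in late 2-cell embryos (median -0.29) and none of 24 in blastocysts (median -0.23). From zygote to late 2-cell 11 of 28 rose and 7 fell in WT, and 11 rose and 11 fell in R442Q embryos, to be read against the same shares of all genes. The interaction was positive for Cop1, a ubiquitin ligase for p53 (1.43 ± 0.32, 0.00606), and negative for Daxx, a chaperone that binds MDM2 (-2.02 ± 0.49, 0.0105), Chek2, the checkpoint kinase CHK2 (-1.26 ± 0.41, 0.0495), and Trp53bp2, or 4 of 28, where 10.1% of all genes were called in either direction. Trp53bp2 is counted although its zygote counts were too low for a fold change, so its call is not read as a change in the genotype effect.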

How the data were processed

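RNA-seq of single embryos was read from tables of the whole series. Per the submitters' processing notes the authors used RSEM and the mm10 build; versions are not given in the sources used here. The deposited zygote and late 2-cell tables hold expected counts (RSEM estimates), which were rounded to whole numbers, and FPKM by the authors; the deposited blastocyst table holds FPKM only. The members and lists were chosen with earlier results of these data known. Counts were tested with edgeR 4.0.16 (R 4.3.3; filterByExpr with a minimum count of 10, TMM, quasi-likelihood), within a stage and jointly over 4 groups; blastocysts with limma 3.58.1 on log2(FPKM + 1), for genes at 1 FPKM or more in at least 7 embryos. P-values were adjusted by Benjamini-Hochberg over all genes tested, threshold 0.05. Blastocyst fold changes are on the log2(FPKM + 1) scale, which understates low genes. Named members are those past the threshold, with values per embryo, and the abundant others; from other lists, up to 4 with the smallest p were named. Trp53bp2 is named without a fold change because its counts in zygotes were too low. Implied lengths used genes with at least 50 counts in every embryo, and limma. DESeq2 1.42.0, other scalings, filters, leave-one-out fits and a replicate block were alternatives. The numbers of alternatives given for single genes leave out the block. The fits were also run on simulated data, with an outcome that is not reported here. Positions come from GENCODE M21 (GRCm38) and promoters from RefSeq (GRCm38.p6). Total counts per embryo are given for zygotes and late 2-cell embryos, and the depth of blastocysts is unknown.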

Additional observations from a re-analysis of the deposited data

Results flagged for a closer look

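The genotype effect of 3 genes differed between zygotes and late 2-cell embryos by the interaction test: Apaf1 (log2 -2.12), Mdm2 (-1.55) and Sesn2 (-3.1).

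Single embryos lay far from the rest of their group in 18 of 158 gene-by-group sets, where the threshold gives about 1 in 20 by chance and 7.44% of the 75200 sets of all tested genes passed it. The sets share embryos: R442Q blastocyst replicate 7 accounts for 5 of the 18 and R442Q late 2-cell replicate 4 for 3. In R442Q late 2-cell embryos, replicate 4 was lowest for Sesn2 (4.67 CPM, nearest other 33.4), Plk3 (1.04, nearest 13.4) and Aen (0.519, nearest 15.0). Replicate 1 had no count of Ppm1d (0 CPM, nearest 8.82), replicate 2 was highest for Mdm4 (2750 CPM, nearest 1780), and replicate 3 was lowest for Ei24 (29.7 CPM, nearest 94.3). In WT late 2-cell embryos, replicate 1 was highest for Cdkn1a (284 CPM, nearest 135) and Ccng1 (301 CPM, nearest 49.1), replicate 2 lowest for Pmaip1 (10.5 CPM) and replicate 4 lowest for Tnfrsf10b (3.1 CPM, nearest 7.15).

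In blastocysts, R442Q replicate 7, which also had the fewest genes detected, was lowest for Sesn1 (1.51 FPKM, nearest 3.82), Sesn2 (0.04, nearest 13.5), Tnfrsf10b (0.86, nearest 5.25), Phlda3 (0.17, nearest 8.49) and Ei24 (2.56, nearest 5.78). R442Q replicate 6 was lowest for Polk (1.86 FPKM, nearest 7.83). WT replicate 6, the other embryo with few genes detected, was lowest for Trp53 (5.15 FPKM, nearest 85.2), and WT replicate 2 was lowest for Ei24 (0.23 FPKM, nearest 8.02).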

How the results depend on the processing

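Counts of the 31 genes that passed are given here beside those of all genes tested. In zygotes 1 gene passed in the joint fit of both stages, which called 270 of all 16199 genes against 1643 of 12420 in the fit of zygotes alone, and 2 or 3 passed without any 1 embryo (1125 to 1718 of all genes). In late 2-cell embryos, where 580 of all 13883 genes passed, 1 of the 31 passed without a filter on low counts (889 of 26742 in all), 0 with the GC and length trend removed (143 of 13784), and 1 to 2 without any 1 embryo (142 to 891 in all). At that stage the joint fit called 2507 of all 16199 genes and DESeq2 1854 of 26200, and Sesn2 and Mdm2 passed in both. On log2(FPKM + 1) with limma, the change of Apaf1 between stages in R442Q embryos was -0.092 (limma adjusted p 0.844), against 0.863 on counts. None of the 31 genes passed in blastocysts in any alternative (0 to 30 of all genes), including without WT replicate 6 and R442Q replicate 7, an alternative chosen after seeing the data, as were those on implied length and removing the GC and length trend. With the latter, 18 genes were called between stages in WT embryos, 21 in R442Q embryos and 3 for the interaction, and 9912, 10311 and 931 of all 16063 genes, where 9920, 10547 and 1639 of 16199 passed with the trend kept. Aen in WT and Perp in R442Q embryos lost their calls there, so these counts include genes not called with the trend kept. Depth limits genes under about 1 CPM.

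With the replicate number of the sample titles as a block, 2 of the 31 genes passed in zygotes (1217 of all 12420), 0 in late 2-cell embryos (58 of 13883), 0 in blastocysts (0 of 11297), 15 between stages in WT embryos (9342 of 16199), 17 in R442Q embryos (9855) and 3 for the interaction (1085). Fewer genes passed over the whole table too. In late 2-cell embryos Sesn2 and Mdm2 then had edgeR adjusted p of 0.061 and 0.117, and Mdm2 in zygotes 0.0655. Between stages the calls of Aen (0.059) and Polk (0.052) in WT embryos were lost. So were those of Apaf1 (0.0679), Dram1 (0.0513) and Perp (0.147) in R442Q embryos. Same-numbered embryos deviated together in some pairs and apart in others. Correlations were -0.064 to 0.067 in zygotes, -0.179 to 0.24 in late 2-cell embryos and -0.168 to 0.204 in blastocysts. The labels do not say what the numbers mark, so whether the block belongs in the test is not settled. The authors' column names number the zygotes and late 2-cell embryos differently. With that number as the replicate block, chosen after seeing the data, 2 genes passed in zygotes (1004 of all genes), 0 in late 2-cell embryos (0 of all genes by edgeR, 2158 at an unadjusted p under 0.05, so that the count says nothing of the 31), 15 between stages in WT (9146), 18 in R442Q embryos (10045) and 3 for the interaction (958). Same-numbered embryos then correlated at -0.076 to 0.063 in zygotes and -0.179 to -0.077 in late 2-cell embryos.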
